A study of Arabidopsis thaliana with 6 samples.

Results

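The Aux/IAA repressors and the auxin-conjugating GH3 enzymes of *Arabidopsis thaliana* are described here in *eml1 eml3* mutant and wild-type (WT) siliques. The members were chosen by locus, as IAA1 to IAA20, IAA26 to IAA34, GH3.1 to GH3.6 and GH3.17. The rule itself uses no measured value, but the members were chosen with earlier results of these data known. They are 36 of the 37336 genes listed, 29 of them Aux/IAA genes and 7 of them GH3 genes. Polyadenylated RNA came from self-pollinated siliques taken 1 to 5 days after pollination: 3 libraries carried the double mutant alleles *eml1-2* and *eml3-4* and 3 were WT. EML1 and EML3 are EMSY-like proteins thought to read histone marks. Siliques contain fruit wall and seeds together, and fewer cells of a type cannot be told apart from less RNA per cell. Whether the libraries stem from separate plants is not stated, so the p-values below reflect only the spread among these 6 samples, part of which may be technical.

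Aux/IAA proteins bind the auxin response factors (ARFs) and, with the TOPLESS corepressors, keep their target genes off. Auxin joins an Aux/IAA protein to a TIR1/AFB F-box receptor through a short degron in the repressor, the repressor is destroyed and the ARF is released. GH3 enzymes of this group link free auxin to amino acids, which lowers active auxin. Many genes of both families are themselves auxin-induced, so the system feeds back on itself. In young fruits, auxin made after fertilization is known to drive seed coat and fruit growth, and in tomato loss of the relative of IAA9 gives fruits without fertilization.

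The degron sets how an Aux/IAA protein is degraded, so its codons were looked up in the longest annotated coding sequence of each gene (RefSeq, TAIR10.1). In-frame codons for its core of glycine, tryptophan, proline and proline in a row were present in 23 of the 29 Aux/IAA genes. They were not found in IAA20, IAA30, IAA31, IAA32, IAA33 and IAA34. The stretches below belong to the 7 genes that hold these codons and were higher in the mutant, with the core codons in capitals and 4 codons on each side.
IAA1: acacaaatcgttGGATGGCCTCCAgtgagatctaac
IAA2: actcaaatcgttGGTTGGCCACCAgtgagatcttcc
IAA3: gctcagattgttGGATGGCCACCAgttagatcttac
IAA4: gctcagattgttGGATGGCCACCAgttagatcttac
IAA6: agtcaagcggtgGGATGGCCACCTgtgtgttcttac
IAA17: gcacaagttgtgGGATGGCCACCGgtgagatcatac
IAA19: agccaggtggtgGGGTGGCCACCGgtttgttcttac
The stretches of IAA3 and IAA4 are the same letter for letter.

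ARFs bind the auxin response element, and its known forms TGTCTC and TGTCGG were searched on both strands in the 300 bases before each annotated gene start. TGTCTC was present for 14 of the 36 members and in 13.0% of 27443 protein-coding promoters of the same length. TGTCGG was present for 6 members and in 4.91% of those promoters. Either form was present for 17 members and in 17.3% of promoters, and the shared core TGTC alone for 32 members and in 80.8%. A match describes letters only and is not evidence of binding. The stretches below are shown because they belong to members with large or opposite changes and to close relatives, with matches in capitals, written along the strand of the gene (TAIR10.1). A match to the reverse strand reads GAGACA or CCGACA.
IAA19, chromosome 3, plus strand, bases -204 to -103 from the gene start: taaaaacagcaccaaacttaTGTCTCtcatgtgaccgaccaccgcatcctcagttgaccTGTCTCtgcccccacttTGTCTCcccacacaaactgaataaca
IAA6, chromosome 1, minus strand, bases -199 to -154: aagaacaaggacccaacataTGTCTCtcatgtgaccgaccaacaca
IAA1, chromosome 4, plus strand, bases -155 to -11: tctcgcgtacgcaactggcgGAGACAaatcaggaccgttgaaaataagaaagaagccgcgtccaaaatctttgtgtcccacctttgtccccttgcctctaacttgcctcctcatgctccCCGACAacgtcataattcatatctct
IAA20, chromosome 2, plus strand, bases -89 to -44: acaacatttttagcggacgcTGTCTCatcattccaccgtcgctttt
IAA30, chromosome 3, plus strand, bases -76 to -31: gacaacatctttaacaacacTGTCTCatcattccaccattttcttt
GH3.3, chromosome 2, minus strand, bases -136 to -91: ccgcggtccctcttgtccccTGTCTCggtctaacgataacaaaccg
GH3.2, chromosome 4, plus strand, bases -164 to -119: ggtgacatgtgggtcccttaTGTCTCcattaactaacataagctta
IAA6 and IAA19 share 37 of 46 bases around their first TGTCTC, with 23 identical bases in a row. IAA20 and IAA30 share 28 of 46 bases, with 18 in a row. IAA12 and IAA13, another pair of relatives, share 33 of 46 bases around a TGTCGG. The windows were centred on the match, so its own letters agree in every pair by construction. No other pairs were compared.

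**Figure D1:**
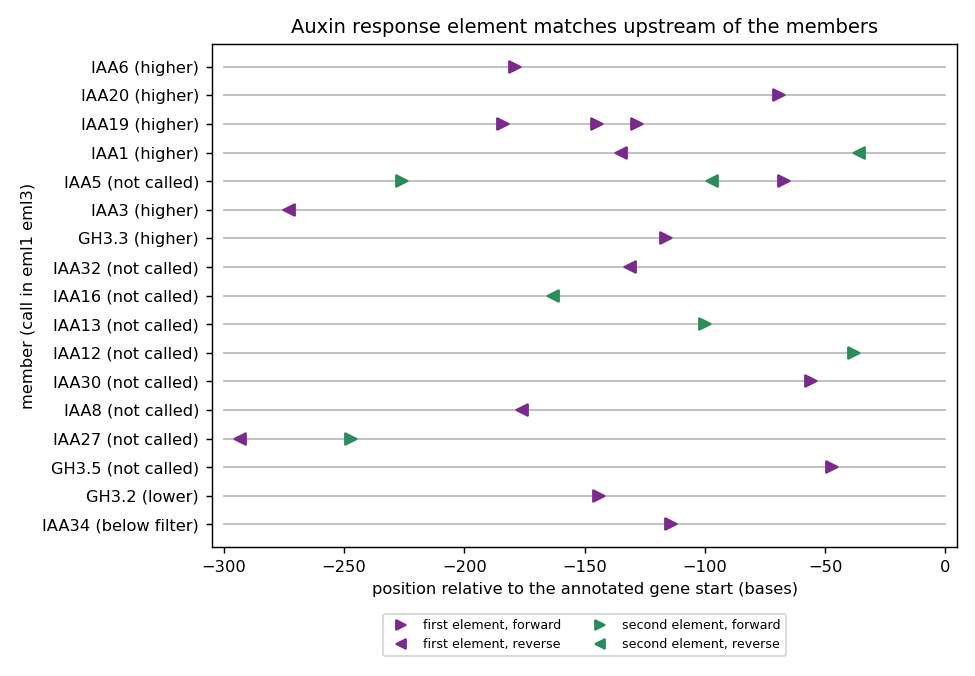
Position of each auxin response element match in the 300 bases before the annotated start (horizontal axis, bases) for the 17 members that hold one, ordered from the largest rise at the top, with the untested IAA34 last. Purple marks TGTCTC (first element), green TGTCGG (second element), and the arrowhead gives the strand. IAA19 holds 3 matches between -184 and -128, and the members with a match include higher, lower and uncalled genes.

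Facts of the libraries bear on what follows. Recovered depth was 26771227 to 39246167 reads per library. EML3 stood at 2129 to 2718 normalized reads in WT and at 173 to 198 in the mutant, and EML1 at 1190 to 1365 and 1072 to 1236, a count over the whole gene that does not check the *eml1* allele. All 6 silique wall markers had reads in every library, with summed levels of 7751 to 8388 in WT and 7368 to 8103 in the mutant, and no marker of any cell type list was at 0 throughout. Within that list SHP1 was lower in the mutant (3243 ± 243 to 2246 ± 246, SD, n = 3; limma adjusted p = 0.0273). Mutant replicate 3 and WT replicate 3 stood apart. In mutant replicate 3 the 10 seed storage genes summed to 69994, led by CRU1 at 19059, against 289 to 662 in the other 5 libraries. The 5 embryo maturation genes summed to 619 and 735 in mutant replicates 1 and 2, to 2515 in mutant replicate 3 and to 1778 to 2346 in WT, and WRI1 was called lower. The 9 endosperm genes summed to 3090 to 3759 in WT and 3014 to 3111 in the mutant, and the 5 seed coat genes to 17240 to 22180 and 17803 to 19596. The 2 markers of other flower organs summed to 3073 to 4393 in WT and 1914 to 2187 in the mutant, and AP3 was called lower. The 3 pollen genes summed to 13158 in WT replicate 3, to 5088 and 5216 in WT replicates 1 and 2 and to 2760 to 4805 in the mutant, and PPME1 was called lower. WT replicate 3 was also the WT library farthest from the other 2 in several members, among them IAA1, IAA3, IAA6, IAA14 and GH3.17. In others, such as IAA2, IAA17, IAA19 and GH3.2, a different WT library was. The part of these shifts in the changes below was not tested, apart from the values given without single libraries.

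By limma calls the mutant had more RNA of 8 Aux/IAA genes and of GH3.3 and less of GH3.2. The 6 Aux/IAA genes with the highest WT level per kilobase were not among them, although IAA16, one of these 6, passed in DESeq2. In limma, with Benjamini-Hochberg adjustment over 21751 genes and a threshold of 0.05, IAA1 (AT4G14560), IAA2 (AT3G23030), IAA3 (AT1G04240), IAA4 (AT5G43700), IAA6 (AT1G52830), IAA17 (AT1G04250), IAA19 (AT3G15540) and IAA20 (AT2G46990) were higher and no Aux/IAA gene was lower. Among the GH3 genes GH3.3 (AT2G23170) was higher and GH3.2 (AT4G37390) lower. That makes 9 higher and 1 lower of 31 tested members, where 3.69% of all tested genes were higher and 3.1% were lower. Over all genes this was 802 higher and 674 lower, a split that turned to 615 and 863 after rescaling each library to one total, where the members gave 8 and 1. IAA20 passed the minimum mean of 10 only through its mutant libraries, so its difference is tied to its being tested, and 8 members were higher without it. The other 5 members, IAA15, IAA29, IAA33, IAA34 and GH3.1, had means under 10 and were not tested. The median log2 change was 0.38 over the 25 tested Aux/IAA genes, -0.12 over the 6 tested GH3 genes and 0.00 over all tested genes. The calls of IAA1, IAA17, IAA19, GH3.2 and GH3.3 held under all 20 alternative settings.

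**Figure D2:**
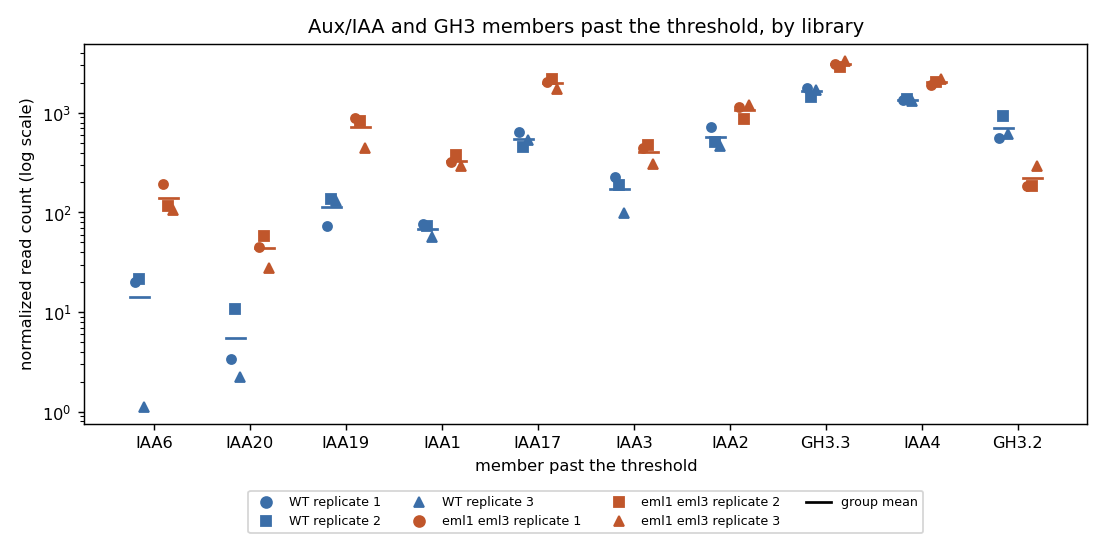
Normalized read count (vertical axis, log scale) of the 10 members past the threshold in each WT (blue) and *eml1 eml3* (orange) library, with the replicate given by the symbol and the group mean by a line. The mutant libraries lie above all WT libraries in 9 members and below them in GH3.2.

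IAA1 to IAA4 form one branch of the family and are classic early auxin-response genes. IAA1 stood at 77.1, 73.5 and 56.4 normalized reads in WT replicates 1, 2 and 3 and at 322, 382 and 292 in mutant replicates 1, 2 and 3. Its group means were 69.0 ± 11.1 and 332 ± 45.6 (SD, n = 3), a ratio of 4.81, and the log2 change was 2.25 ± 0.26 (SE) at a limma adjusted p of 0.000754. The groups lay far apart, and each library of a group stood near the others. IAA2, the closest relative of IAA1 at 81.5% transcript identity over its best match, stood at 724, 515 and 464 in WT and at 1147, 874 and 1192 in the mutant. Its log2 change was 0.93 ± 0.20 (SE, limma adjusted p = 0.0198), with no overlap between the groups. It lost its call without WT replicate 2 (limma adjusted p = 0.0908), WT replicate 3 (0.071), mutant replicate 1 (0.0881) or both libraries numbered 3 (0.051).

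IAA3, known as SHY2, restrains growth of the root meristem. It stood at 229, 190 and 99.2 in WT and at 441, 478 and 306 in the mutant. Its log2 change was 1.29 ± 0.32 (SE), with a limma adjusted p of 0.0383. WT replicate 3 was the lowest of the 6 libraries. Its call was lost without WT replicate 2 (limma adjusted p = 0.0895), WT replicate 3 (0.0791), mutant replicate 1 (0.137) or mutant replicate 2 (0.151). IAA3 overlaps AT1G04230 on the other strand over 640 bases, and the library protocol describes no step that marks the strand, so reads in the overlap cannot be assigned. AT1G04230 itself stood at 414 in WT and 476 in the mutant and did not pass (limma adjusted p = 0.642).

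IAA4 stood at 1332, 1364 and 1326 in WT and at 1906, 2029 and 2179 in the mutant. It had the smallest log2 change of the members that rose, 0.60 ± 0.11 (SE, limma adjusted p = 0.0111), from 1340 ± 20.4 to 2038 ± 136 (SD, n = 3). Both groups were tight and apart. The call was lost without WT replicate 2 (limma adjusted p = 0.0539) or mutant replicate 2 (0.0592).

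The largest rises lay in the related genes IAA6 and IAA19 and in IAA20. IAA19, known as MSG2, partners ARF7 in the bending of seedlings towards light. It stood at 73.8, 137 and 131 in WT and at 888, 830 and 447 in the mutant, with group means of 114 ± 34.9 and 722 ± 239 (SD, n = 3). The ratio was 6.34 and the log2 change 2.64 ± 0.32 (SE, limma adjusted p = 0.00101). Mutant replicate 3 was the lowest mutant library and still above every WT library.

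IAA6, whose upstream stretch resembles that of IAA19, stood at 20.1, 21.6 and 1.13 in WT and at 195, 116 and 107 in the mutant. All WT libraries together held 47 reads of it and the mutant libraries 440. The ratio of means was 9.77 and the log2 change 3.75 ± 0.84 (SE, limma adjusted p = 0.0259). WT replicate 3 held a single read, and the log2 change was 2.63 without it and 4.34 without WT replicate 2. With a pseudocount of 5 it was 3.126, and DESeq2 gave 3.27. The call was lost without mutant replicate 1 (limma adjusted p = 0.113) or mutant replicate 2 (0.0832). IAA5, of the same branch, stood at 10.1, 26.4 and 9.02 in WT and at 103, 104 and 17.6 in the mutant. Mutant replicate 3 fell within the WT range, and the gene did not pass (log2 change 2.02 ± 0.77, limma adjusted p = 0.153). Without that library IAA5 passed, as it did in DESeq2 and in edgeR without a filter.

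IAA20 belongs to the members without the degron codons. It stood at 3.35, 10.8 and 2.25 in WT and at 45.4, 58.7 and 27.7 in the mutant, from 17 and 136 reads. Its limma adjusted p was 0.0466, and the call was lost under 11 of 19 alternatives, with adjusted p up to 0.225. Its log2 change was 2.97 ± 0.77 (SE), and 2.26 with a pseudocount of 5. IAA30, its closest relative at 76.0% identity, stood at 28.5, 15.7 and 15.8 in WT and at 34.1, 17.2 and 12.6 in the mutant, with overlapping groups (limma adjusted p = 0.989). The difference between the changes of these relatives was not tested. IAA31, the third of this branch, stood at 1344 ± 155 in WT and 1106 ± 83.8 in the mutant (SD, n = 3) and did not pass (limma adjusted p = 0.265).

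IAA7, IAA14, IAA16 and IAA17 form another branch, named for dominant mutants that resist auxin. IAA17, known as AXR3, stood at 648, 456 and 532 in WT and at 2041, 2173 and 1726 in the mutant. Its group means were 546 ± 96.5 and 1980 ± 230 (SD, n = 3), with a log2 change of 1.87 ± 0.16 and the smallest adjusted p of all members (limma, 0.000103). IAA14, known as SLR and a repressor of lateral root formation, stood at 67.9, 63.7 and 147 in WT and at 274, 290 and 134 in the mutant. The libraries numbered 3 came together there, between the others of both groups, and the gene did not pass (log2 change 1.34 ± 0.41, limma adjusted p = 0.0787). It passed without either of those libraries and without both. IAA16 stood at 5423 ± 448 and 7036 ± 627 (SD, n = 3), a log2 change of 0.38 with every mutant library above every WT library, and did not pass (limma adjusted p = 0.0803). IAA7, known as AXR2, had a log2 change of 0.20 ± 0.11 and did not pass (limma adjusted p = 0.338).

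**Figure D3:**
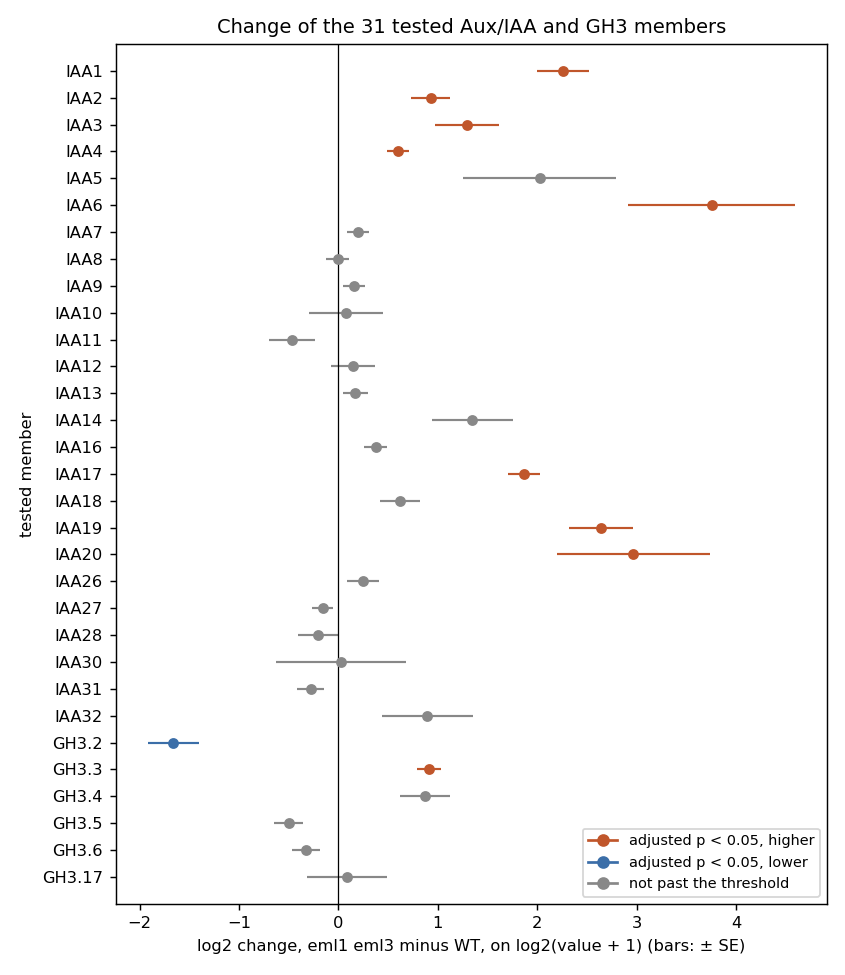
Log2 change of each tested member, *eml1 eml3* minus WT on the log2(value + 1) scale (horizontal axis), with SE bars, coloured by call. IAA1, IAA6, IAA19 and IAA20, and IAA5 short of the threshold, lie above 2, and GH3.2 is the lone member past the threshold on the negative side at -1.66.

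Neighbouring Aux/IAA genes did not always share a call. In the reference annotation IAA3 and IAA17, IAA14 and IAA1, and IAA2 and IAA7 are 3 pairs of adjacent genes that point away from each other. In the first pair both genes passed, at log2 changes of 1.29 and 1.87. In the second IAA1 passed at 2.25 and IAA14 did not, at 1.34, though IAA14 passed under 5 of 20 alternatives. In the third IAA2 passed at 0.93 and IAA7 did not, at 0.20. The differences within pairs were not tested.

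The Aux/IAA genes with the most RNA lay outside the limma calls. Per kilobase of exon in the reference, the mean WT level of normalized reads was 8084 for IAA9, 5613 for IAA8, 3022 for IAA7, 2678 for IAA16 and 2170 for IAA27. IAA9 ranged from 7473 to 8506 per kilobase over the WT libraries and IAA8 from 5292 to 5964, so these neighbours in the order did not overlap, whereas IAA7 (2739 to 3363) and IAA16 (2425 to 2831) did. IAA31 followed at 1507, and none of these 6 passed in limma. IAA16 passed in DESeq2 (adjusted p = 0.0474). The Aux/IAA genes that rose ranked from 7th, IAA4 at 988, to 27th of 29, IAA20 at 5.53. Summed per kilobase, the 29 genes came to 26365 to 29166 in WT and 32251 to 32918 in the mutant. The 5 highest made up 78.1% to 79.6% of that sum in WT and 70.9% to 73.3% in the mutant, while the 8 called genes, chosen here by their rise, made up 7.55% to 8.08% and 15.3% to 17.1%.

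IAA8, IAA9 and IAA27 are relatives, and all 3 were high in both genotypes without passing. IAA9 stood at 17699, 15984 and 18195 in WT and at 18597, 18846 and 20506 in the mutant, and the log2 change was 0.16 ± 0.11 (SE) with a limma adjusted p of 0.448. IAA8 stood at 11552 ± 693 and 11528 ± 1300 (SD, n = 3; limma adjusted p = 0.981). IAA27 stood at 3114 ± 234 and 2784 ± 104 (SD, n = 3), with the mutant below WT in every library and no call (limma adjusted p = 0.439).

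**Figure D4:**
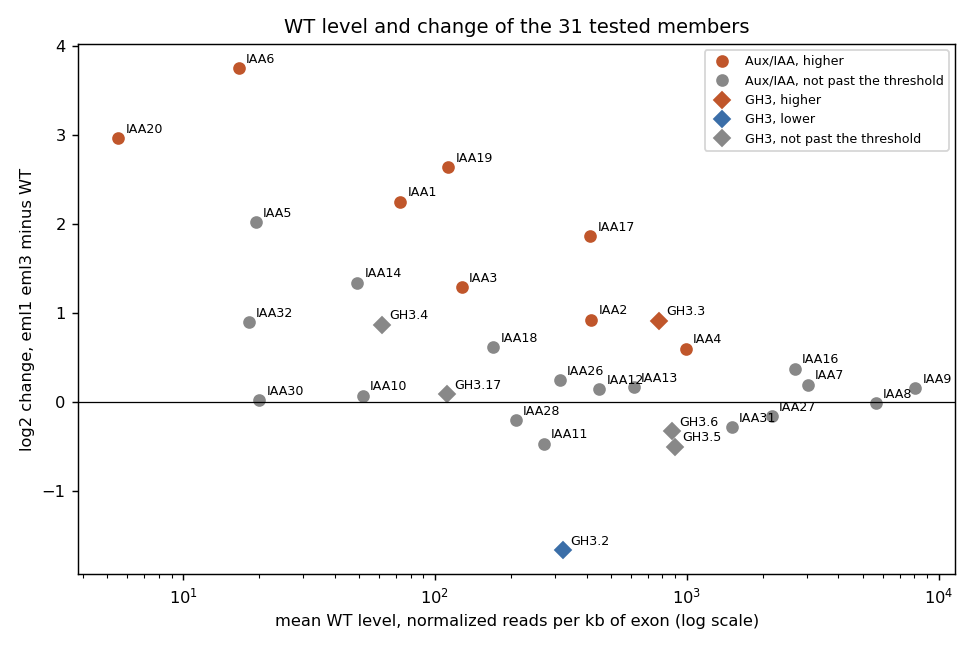
Mean WT level per kilobase of exon (horizontal axis, log scale) and log2 change (vertical axis) of the 31 tested members, circles for Aux/IAA and diamonds for GH3, coloured by call. The 6 Aux/IAA genes highest in WT stay between -0.28 and 0.38. WT values enter both axes.

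The following Aux/IAA genes, some of them known from embryo patterning or root branching, did not pass in limma. IAA12, known as BDL, represses the ARF MONOPTEROS in the early embryo, and stood at 679 ± 194 in WT and 736 ± 117 in the mutant (SD, n = 3; limma adjusted p = 0.761). Its relative IAA13 stood at 1370 ± 77.0 and 1545 ± 161 (limma adjusted p = 0.487). IAA18 stood at 299, 374 and 239 in WT and at 441, 492 and 449 in the mutant, without overlap but short of the threshold (log2 change 0.62 ± 0.20, limma adjusted p = 0.0999). IAA26 had a log2 change of 0.25 and IAA28, which acts in lateral root formation, of -0.20, with overlapping groups. IAA11 stood at 343 ± 61.8 and 249 ± 54.3 (limma adjusted p = 0.272), and IAA10 at 67.5 ± 6.43 and 73.2 ± 22.1 (limma adjusted p = 0.936).

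IAA32 stood at 24.3, 46.0 and 31.6 in WT and at 53.6, 49.6 and 89.5 in the mutant, a log2 change of 0.90 ± 0.46 that did not pass (limma adjusted p = 0.296). It overlaps AT2G01210 on the other strand over 826 bases, so its reads are uncertain in the same way as those of IAA3. The untested Aux/IAA genes were close to silent: all 3 WT libraries held 18 reads of IAA15, 6 of IAA29, 27 of IAA33 and 0 of IAA34, and the mutant libraries 10, 6, 17 and 5. The tested genes IAA5, IAA9, IAA10, IAA11, IAA13 and IAA27 also overlap a gene on the other strand, and the untested IAA34 overlaps one on its own strand. Of these partners, those of IAA9, IAA10 and IAA13 had 0 reads.

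Of the 6 tested GH3 genes, GH3.3 rose, GH3.2 fell and 4 did not pass. GH3.3, which conjugates auxin to amino acids, stood at 1770, 1451 and 1715 in WT and at 3080, 2912 and 3296 in the mutant. Its group means were 1645 ± 171 and 3096 ± 193 (SD, n = 3), a ratio of 1.88, and the log2 change was 0.92 ± 0.12 (SE) at a limma adjusted p of 0.00166. GH3.2, an enzyme of the same kind, stood at 555, 933 and 618 in WT and at 186, 183 and 295 in the mutant. Its means of 702 ± 202 and 221 ± 63.7 (SD, n = 3) give a log2 change of -1.66 ± 0.26 (SE) at a limma adjusted p of 0.00396. Both genes hold TGTCTC upstream, as printed above, and neither group overlapped the other in either gene.

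GH3.4, the closest relative of GH3.2 at 90.0% identity, stood at 124, 98.0 and 109 in WT and at 226, 185 and 198 in the mutant. All mutant libraries were above all WT libraries, and the gene did not pass (log2 change 0.87 ± 0.25, limma adjusted p = 0.0658). The ratio of GH3.2 to GH3.4 was 4.47, 9.52 and 5.65 in WT and 0.824, 0.989 and 1.49 in the mutant. Reads that fit both genes could blur this ratio, and the treatment of such reads is not given in the sources used here.

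GH3.5, which also accepts salicylic acid, stood at 1744, 2329 and 2271 in WT and at 1470, 1645 and 1349 in the mutant. Its relative GH3.6 stood at 1733, 1920 and 2440 in WT and at 1668, 1565 and 1583 in the mutant. In both genes every mutant library was below every WT library, and neither passed in limma (adjusted p = 0.0666 and 0.211). GH3.17, which favours glutamate, stood at 235, 228 and 455 in WT and at 575, 277 and 184 in the mutant, with wide overlap (limma adjusted p = 0.929). GH3.1 was close to silent, with 12 reads over the WT libraries and 31 over the mutant libraries. Per kilobase of exon, GH3.5 (897), GH3.6 (875) and GH3.3 (777) led the family in WT with overlapping ranges, and in the mutant GH3.3 stood at 1462, against 692 for GH3.6 and 631 for GH3.5.

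Counted over all tested members, 15 had every mutant library above every WT library, where 14.0% of all tested genes did, and 4 had every mutant library below, where 12.8% did. Of the 15, 9 passed the threshold. The authors' deposited table, made with DESeq2, called 13 members higher and 2 lower. DESeq2 also calls more genes in general. On the recovered reads it called 1275 of 23374 genes higher and 1122 lower, where limma called 802 and 674 of 21751. Beyond the limma calls, the authors' deposited table called IAA5, IAA14, IAA16 and GH3.4 higher and GH3.5 lower. The authors' deposited table gave log2 changes of 2.31 for IAA5, 1.33 for IAA14, 0.38 for IAA16, 0.88 for GH3.4 and -0.51 for GH3.5.

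Mutant replicate 3, the library with seed storage RNA, was the lowest mutant library in 6 of the 9 members that rose (IAA1, IAA3, IAA6, IAA17, IAA19 and IAA20) and the highest in the other 3 (IAA2, IAA4 and GH3.3). Among all 31 tested members it was the lowest mutant library in 15. Without it limma called 11 members higher, adding IAA5 and IAA14, and GH3.2 lower. Counts of higher members without one library were 8, 5 and 7 for WT replicates 1, 2 and 3 and 5, 5 and 11 for mutant replicates 1, 2 and 3. Higher calls over all genes moved too, at 519, 385 and 550 without WT replicates 1, 2 and 3. Without mutant replicates 1, 2 and 3 they were 332, 319 and 1157, against 802 with all libraries.

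Matches to the response element did not divide the members by call. Of the 9 members that rose, 6 held TGTCTC or TGTCGG upstream and IAA2, IAA4 and IAA17 held neither. GH3.2, which fell, held one, as did 9 of the 21 tested members that did not pass and 1 of the 5 not tested. IAA5 held 3 matches. Of the 8 Aux/IAA genes that rose, 7 held the degron codons, as did 14 of the 17 tested Aux/IAA genes that did not pass.

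Among the receptors, ARFs and corepressors 2 genes passed, where 3.69% of all tested genes were higher and 3.1% were lower. Of 6 receptor genes AFB1, an auxin receptor, was called higher and none lower. AFB1 stood at 821, 1385 and 1091 in WT and at 2108, 2196 and 1429 in the mutant (log2 change 0.80 ± 0.21, limma adjusted p = 0.05), just inside the threshold, and lost its call under 12 of 20 alternatives. Of 22 tested ARF genes 0 were higher and ARF11 was lower, from 292 ± 58.3 to 132 ± 29.9 (SD, n = 3; limma adjusted p = 0.0291), a call lost when any WT library or mutant replicate 1 or 2 was left out. Of 5 TOPLESS family corepressors 0 passed in limma, with 0 at an unadjusted p under 0.05. TPR4, the corepressor with the smallest p, stood at 3457 ± 628 in WT and 3818 ± 346 in the mutant (limma adjusted p = 0.588).

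Of 8 other tested genes of the GH3 family 0 passed in limma, with 1 at an unadjusted p under 0.05. That gene, GH3.10, stood at 1119 ± 160 in WT and 1648 ± 200 in the mutant (SD, n = 3; limma adjusted p = 0.0508), and it passed in 6 of 20 alternatives, DESeq2 among them. Of 9 tested genes for other routes of auxin inactivation or for release of auxin from its conjugates, 0 rose and 1 fell, where 3.1% of all tested genes were lower. That gene, ILL3, of the conjugate-hydrolase family, fell from 331 ± 65.2 to 176 ± 29.7 (SD, n = 3; limma adjusted p = 0.0495), a call lost under 9 of 20 alternatives. Of 5 other tested auxin-induced genes 0 passed, with ARGOS, which promotes organ growth, at 186 ± 45.0 and 312 ± 39.6 (SD, n = 3; limma adjusted p = 0.0847). Of 8 tested auxin synthesis genes 0 passed, with 3 at an unadjusted p under 0.05 that did not share a direction. The median log2 change of this list was -0.03, and YUC3 stood at 93.9 ± 13.5 in WT and 161 ± 13.7 in the mutant (SD, n = 3; limma adjusted p = 0.121). Of 15 tested genes with a SAUR symbol 5 were higher and 0 lower, where 3.69% of all tested genes were higher. Log2 changes were 1.78 for SAUR26, 1.47 for AT5G01830, labelled SAUR21, and 1.17 for SAUR20 (limma adjusted p = 0.00244, 0.00497 and 0.0199). The list rests on the reference symbol alone, and whether AT5G01830 encodes a SAUR protein was not checked. SAUR20 lost its call under 5 of 20 alternatives, among them the replicate block.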

How the data were processed

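The authors' deposited signal was gene counts scaled by a DESeq2 size factor for each library, per the file headers. The submitters' processing notes name DESeq2, Trim Galore, STAR 2.5.2a, SAMtools, featureCounts and Subread. For build, annotation, strand setting and plant accessions the sources used here give nothing. Values were whole multiples of 1 read within 1e-06 in 100% of cases, so whole reads were recovered. Low counts were mostly even (69.3% to 73.9% among genes with 1 to 20 reads), so 1 fragment may count as 2 reads. The authors' deposited table gives log2 fold changes, their standard errors and Wald statistics (scores), and p-values.

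Genes with a mean of at least 10 were tested with limma 3.58.1 (R 4.3.3, variance trend) on log2(value + 1), two-sided, Benjamini-Hochberg threshold 0.05, genotype as the only term. Fold changes of low genes depend on the pseudocount. Ratios are of mean normalized reads. Alternatives were pseudocounts of 0.5 and 5, filters, a robust prior, scalings, a replicate block, left-out libraries, and edgeR 4.0.16 and DESeq2 1.42.0 on recovered reads. The code was tested on simulated data.

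Members and lists were chosen with earlier results of these data known. All 36 members are named, with every library's value for those past the threshold and for IAA5, IAA14 and IAA32. These had the largest absolute log2 changes among the tested members that did not pass. Each other list gave up to 3 called genes, or the 1 with the smallest p. Other values by library were added after they were seen.

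The RefSeq annotation (TAIR10.1) gave lengths, neighbours, coding sequences and promoters by locus, matching 37051 of 37336 IDs and all members. BLAST 2.17.0 gave identity over matches of at least 150 bases. The files' own build is not named, so no coordinates are printed.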

Additional observations from a re-analysis of the deposited data

How the results depend on the processing

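Over the 20 alternatives the number of higher members ranged from 5 to 13 and that of lower members from 1 to 2. Over all genes the higher calls ranged from 319 to 1400 and the lower calls from 249 to 1591. The lower count reached 2 with edgeR without a filter, with DESeq2 and without WT replicate 1, where GH3.5 joined GH3.2. Without one library the higher count ranged from 5 to 11 and the lower count from 1 to 2. Such fits pool the spread over both groups. Of the 10 called members 5 passed under every alternative. IAA20 lost its call most often, under 11 alternatives, and IAA2, IAA3, IAA4 and IAA6 lost theirs in fits that left out libraries. Of the uncalled members 5 changed sign, each with a small log2 change. IAA8 turned to 0.048 and IAA10 to -0.049 with both libraries numbered 3 left out, and IAA30 to -0.034 after rescaling to one total. Without one library the log2 change ranged from -0.058 to 0.090 for IAA8, -0.12 to 0.33 for IAA10, -0.096 to 0.33 for IAA12, -0.36 to 0.32 for IAA30 and -0.36 to 0.46 for GH3.17. Rescaling to one total shifted the median log2 change of all genes by -0.06. On the recovered reads edgeR with its filter called 766 genes higher and 637 lower, DESeq2 1275 and 1122, and limma without mutant replicate 3 called 1157 and 1456.

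Whether replicate numbers pair the libraries is not stated. Deviations from group means correlated at -0.08, -0.00 and -0.17 for numbers 1, 2 and 3 over 21751 genes, and at -0.14 to 0.17 between unlike numbers. Depth ran alike by number, at 38196040 (WT) and 39246167 (mutant) reads for number 1, 31503946 and 31569842 for 2, and 27046107 and 26771227 for 3. With 3 libraries per group these values cannot decide whether like numbers were prepared together. With the replicate block 8 members were higher and 1 lower in limma and in edgeR, IAA20 being lost. Over all genes the block gave 666 higher and 537 lower in limma and 571 and 438 in edgeR. The 5 members under the minimum mean passed neither in limma without a filter nor in edgeR without a filter, with adjusted p from 0.387 upwards, and DESeq2 gave no adjusted p for IAA29 and IAA34 and called none of the other 3. GH3.1 had every mutant library above every WT library, with a limma log2 change of 1.44 (adjusted p = 0.387).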
